A study of Homo sapiens with 9 samples.

Results

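The amino acid and neurotransmitter transporters of the SLC1, SLC3, SLC6, SLC7, SLC36, SLC38 and SLC43 families were described in human fibroblasts made senescent by oncogenic RAS, with and without a hairpin against ARID1B. The members were the genes of these 7 families that had a probe set carrying exactly 1 gene symbol, leaving out SLC7A11. They were 57 of the 18417 genes measured in this way, and they lay on 59 of the 33297 probe sets. The cells were IMR90 ER:RAS. IMR90 is a line of human lung fibroblasts (spelled IRM90 in the labels), and ER:RAS couples an oncogenic RAS to a piece of the oestrogen receptor that binds hormone, so that 4-hydroxytamoxifen (4OHT) turns it on. RNA was hybridised to 9 whole-transcript expression arrays, 3 for each of 3 groups. The non-senescent group had an empty vector without 4OHT (vector-4OHT), the senescent group the same vector with 4OHT (vector+4OHT), and the knockdown group a short hairpin RNA against ARID1B with 4OHT (shARID1B+4OHT). All cells carried ER:RAS and were labelled with day 6 after 4OHT, and the dose was 100 nM. A group with the hairpin and no 4OHT, a control hairpin, and 4OHT on cells without ER:RAS were not analysed here. The labels do not say which hairpin was used or that replicates were separate cultures, and p-values therefore rest on the spread between arrays alone.

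Cells take up and release amino acids through carriers in the plasma membrane and in the membranes of lysosomes. Most SLC7 light chains reach the cell surface only when paired with a heavy chain of the SLC3 family and exchange one amino acid for another. Most SLC1, SLC6 and SLC38 carriers draw on the sodium gradient, and some SLC36 carriers on protons. Leucine, arginine and glutamine brought in by these carriers feed protein synthesis and the mTORC1 kinase, and the neurotransmitter carriers of SLC6 and SLC1 are best known for clearing synapses in the brain. Several carrier genes are targets of ATF4, the transcription factor of the amino acid response.

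Values are log2 expression as deposited. Changes are differences of group means on that scale, tested with limma over the 18417 genes, and a gene was called at a Benjamini-Hochberg adjusted p under 0.05. The comparisons were senescence (vector+4OHT minus vector-4OHT), knockdown (shARID1B+4OHT minus vector+4OHT) and what remained (shARID1B+4OHT minus vector-4OHT). They share groups of arrays, the senescent arrays entering the first with one sign and the second with the other, so opposite changes in them are not independent and their values stand side by side only. The median of all probe sets was 6.75. A probe set with a group mean below that level was not shown to lie above background there, and its fold change is uncertain.

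The hairpin's target was lower in the cells that carried it. ARID1B, a subunit of the chromatin remodeller SWI/SNF, read 8.93, 8.85 and 8.94 in non-senescent cells, 8.63, 8.96 and 8.77 in senescent cells, and 8.07, 7.96 and 8.13 in knockdown cells. The 3 knockdown arrays lay below the other 6, by 39.9% of the senescent level (adjusted p = 0.000179, limma). Array medians ran from 6.70 to 6.79. Arrays of the same group correlated across probe sets at 0.9955 to 0.9972 and arrays of different groups at 0.9874 to 0.9956. All 9 fibroblast markers lay above the median of all probe sets in every group, but 7 of the 9 were called lower in senescence. Over all genes 17.6% were called lower there. The mean of the list was 11.51 to 11.65 on non-senescent, 11.16 to 11.25 on senescent and 11.22 to 11.27 on knockdown arrays. Of the defining markers of other cells, 1 of 6 endothelial genes (TEK) and 1 of 5 leukocyte genes (CD68, also a lysosomal protein) lay above the median, as did 3 to 4 of 6 epithelial and 2 to 4 of 7 neural and glial genes. TEK changed by -0.30 in senescence and 0.45 in knockdown, and CD68 by 0.29 and 0.34. Of the epithelial genes 2 were called lower in senescence and 2 higher in knockdown. Among the neural and glial genes 1 was called higher and 1 lower in senescence, and 2 higher in knockdown. The shares of all genes called in either direction were 32.6% and 15.7%. The part of these shifts in the results was not tested. In RNA from whole cultures, fewer cells with a transcript and less of it per cell cannot be told apart.

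Carriers rose and fell in both comparisons. In senescence 18 of the 57 members were called, 8 higher and 10 lower. Of all genes, 32.6% were called, 14.9% higher and 17.6% lower, against 31.6% of the members. In knockdown 16 members were called, 10 higher and 6 lower. That is 28.1% of the members, where 15.7% of all genes were called, 9.63% higher and 6.09% lower. Between knockdown cells and non-senescent cells 17 members were called, 9 higher and 8 lower (29.8%), where 31.5% of all genes were called, 15.6% higher and 15.9% lower. The median member change was 0.02 in senescence and -0.04 in knockdown, and that of all genes was -0.01 and -0.02. With each array's median subtracted, the calls in senescence became 10 higher and 6 lower, and those of what remained 11 higher and 5 lower. No list test was run, so these shares are descriptions.

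As over the whole array, most calls lay among genes with a signal above the median of all probe sets. In 29 members at least 1 group mean lay above 6.75, and 17 of these were called in senescence, 14 in knockdown and 15 in what remained. Of all 12065 genes above that level, 45.3%, 22.5% and 42.8% were called. The other 28 members lay below it in all groups and gave 1, 2 and 2 calls, where 8.41%, 2.91% and 9.98% of all 6352 genes at that level were called. These 28 included most carriers known from brain, kidney or gut, such as the glutamate carriers SLC1A2 and SLC1A6, the glycine carrier SLC6A5, the noradrenaline carrier SLC6A2 and the gut carrier SLC6A19. In all, 27 members were called in at least 1 comparison and 30 in none. The matching share of all genes was not counted. Arrays of the groups compared did not overlap for 17 of the 18 members called in senescence, the exception being SLC6A17. Nor did they for all 16 called in knockdown and all 17 called in what remained. How often this holds over all called genes was not counted, so it does not set the members apart.

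**Figure D1:**
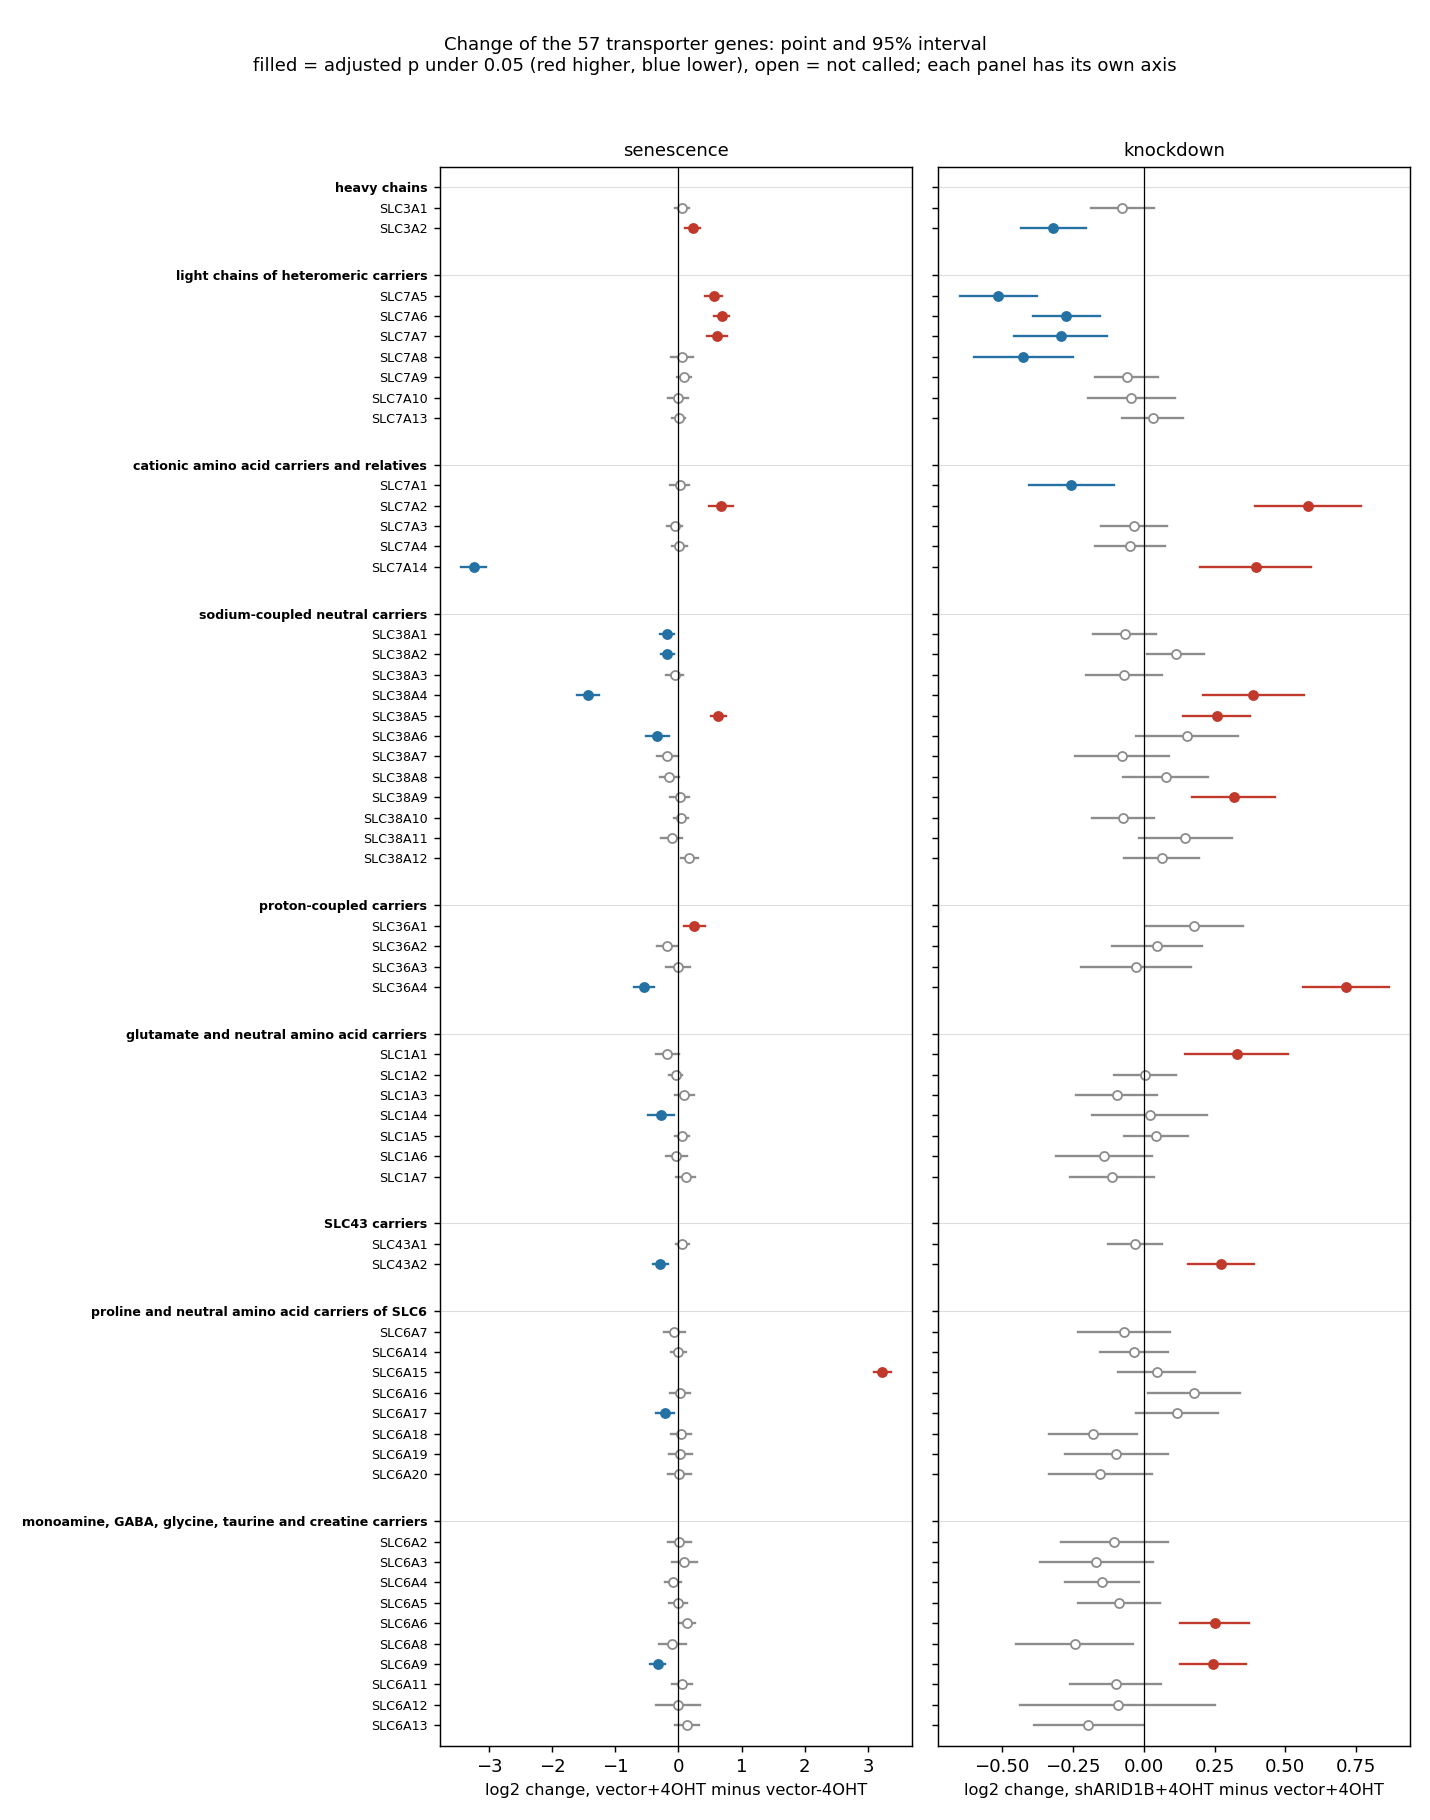
Log2 change of each of the 57 members in senescence (left) and knockdown (right), with the 95% interval of the limma fit; filled points were called higher (red) or lower (blue), open points were not called. SLC6A15 and SLC7A14 stand more than 3 log2 units from 0 in senescence, in opposite directions. The 4 light chains called in knockdown all lie below 0, and the light chain SLC7A11, which is no member, is not drawn. The axes of the panels differ.

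The CD98 heavy chain and several of its light chains were higher in senescent cells and lower with the hairpin. SLC3A2, the heavy chain, rose in senescence, as did 3 of the 7 light chains among the members, and none of the 7 fell. Over all genes 14.9% were called higher in senescence and 17.6% lower. In knockdown SLC3A2 fell and so did 4 of the 7 (3 with array medians subtracted, 2 by the adjusted t-test of the study's methods). None of the 7 rose, and over all genes 9.63% were called higher in knockdown and 6.09% lower. The 7 leave out SLC7A11, a light chain that also pairs with SLC3A2. It moved the other way, by -0.22 in senescence and 0.80 in knockdown. The promoters of SLC3A2 and of its partner SLC7A5 are shown because these genes moved together in both comparisons. They are RefSeq windows of assembly GRCh38.p14, 250 bases before to 50 after a start of transcription, read in the direction of the gene. SLC3A2 had 3 such windows, and the one shown was chosen because it alone held a match to the sequence searched below. The one shown lies on the plus strand at chr11:62881449-62881748, and SLC7A5 lies on the minus strand at chr16:87869458-87869757. Capitals mark a match to TGATGNAA, the core of the element that ATF4 complexes bind in genes of the amino acid response, searched on both strands.
SLC3A2: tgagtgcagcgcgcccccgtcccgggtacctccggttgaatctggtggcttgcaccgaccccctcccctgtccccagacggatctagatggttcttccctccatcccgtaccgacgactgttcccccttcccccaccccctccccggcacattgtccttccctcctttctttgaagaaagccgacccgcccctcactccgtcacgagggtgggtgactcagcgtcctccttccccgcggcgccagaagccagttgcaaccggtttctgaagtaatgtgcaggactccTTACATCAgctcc
SLC7A5: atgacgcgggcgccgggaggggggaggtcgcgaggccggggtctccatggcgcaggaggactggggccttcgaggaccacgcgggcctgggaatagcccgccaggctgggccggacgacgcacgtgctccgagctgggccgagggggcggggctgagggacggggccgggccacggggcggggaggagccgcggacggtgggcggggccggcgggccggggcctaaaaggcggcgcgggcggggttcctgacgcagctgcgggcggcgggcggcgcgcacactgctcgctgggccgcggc
In SLC3A2 the match is TGATGTAA read on the opposite strand, its first printed base 37 bases after the start. The SLC7A5 window holds no match, which says only that these letters are not in it.

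SLC3A2 read 10.27, 10.20 and 10.28 in non-senescent cells, 10.50, 10.53 and 10.40 in senescent cells, and 10.18, 10.14 and 10.14 in knockdown cells. The senescent arrays were the highest 3 and the knockdown arrays the lowest 3, with no overlap. The change was 0.23 in senescence (adjusted p = 0.00593, limma) and -0.32 in knockdown (adjusted p = 0.00215). SLC3A1, the heavy chain of the cystine carrier of kidney and gut, lay below 6.75 in every group and was called in none.

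SLC7A5, the light chain that takes up leucine and other large neutral amino acids, gave 8.99, 9.07 and 9.05 without 4OHT, 9.48, 9.71 and 9.59 in senescent cells, and 9.11, 9.05 and 9.08 with the hairpin. All senescent arrays lay above the other 6, and the non-senescent and knockdown arrays overlapped. SLC7A5 rose 1.47-fold in senescence (log2 change 0.56, SE 0.06, adjusted p = 3.94e-05, limma) and was 30.0% lower in knockdown (-0.51, SE 0.06, adjusted p = 0.000311). What remained was 0.04, with a 95% interval of -0.09 to 0.18. Its array probes may also read copies of the gene elsewhere in the genome, which the values cannot separate.

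SLC7A6 and SLC7A7 exchange cationic amino acids for neutral ones and sodium. SLC7A6 measured 9.83, 9.79 and 9.93 in non-senescent cells, 10.50, 10.59 and 10.51 in senescent cells and 10.25, 10.25 and 10.29 in knockdown cells. The groups formed 3 separate levels, with the knockdown arrays between the others. The rise in senescence was 1.61-fold (log2 change 0.68, adjusted p = 2.75e-06, limma), the knockdown change was -0.27 (adjusted p = 0.00576), and 0.41 remained (adjusted p = 0.000136).

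SLC7A7 had the same order of groups at a low level. It read 6.65, 6.54 and 6.62, then 7.04, 7.23 and 7.35, then 6.92, 6.92 and 6.91, and the non-senescent mean of 6.60 was below 6.75. It rose by 0.61 in senescence (adjusted p = 7.85e-05, limma) and changed by -0.29 in knockdown (adjusted p = 0.0214), and 0.31 remained (adjusted p = 0.0072). The knockdown call was lost without any of the arrays senescent 2, senescent 3 or knockdown 1, 2 or 3, where the change was -0.22 to -0.29 and the adjusted p 0.0571 to 0.0707. It was lost as well with array medians subtracted (-0.27, adjusted p = 0.064).

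SLC7A8, another exchanger of neutral amino acids, was the fourth light chain called in knockdown. It read 6.46, 6.61 and 6.46 in non-senescent, 6.56, 6.63 and 6.49 in senescent and 6.26, 6.18 and 5.97 in knockdown cells, so all groups lay below 6.75. The knockdown arrays were the lowest, with a change of -0.42 in knockdown (adjusted p = 0.00454, limma) and -0.37 against non-senescent cells (adjusted p = 0.00404). SLC7A9, SLC7A10 and SLC7A13 were called in none of the comparisons. SLC7A11, the cystine carrier that also pairs with SLC3A2 and is no member here, moved the other way, with changes of -0.22 in senescence (adjusted p = 0.0282, limma) and 0.80 in knockdown (adjusted p = 3.55e-05).

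**Figure D2:**
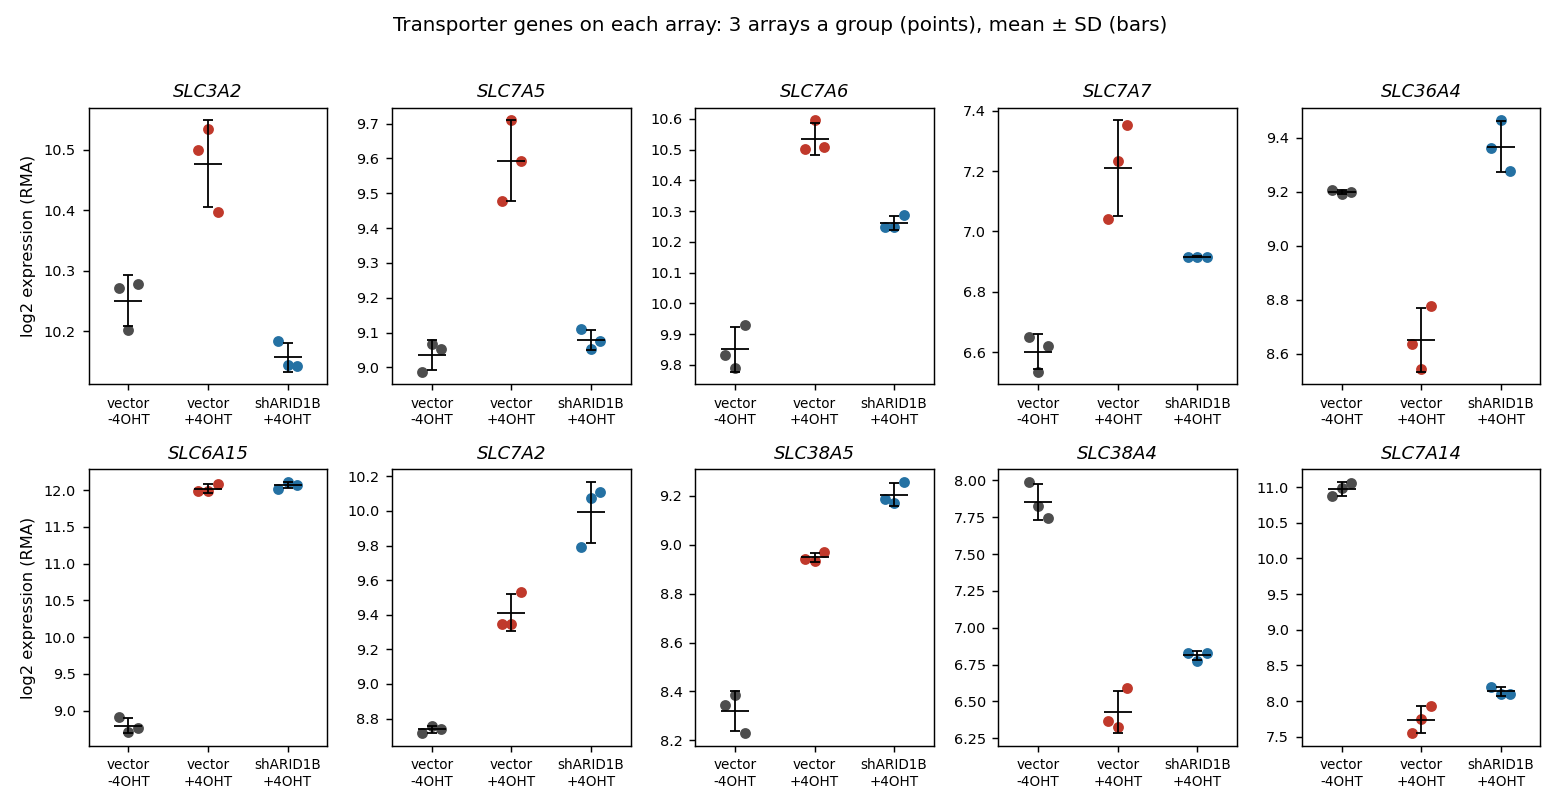
Log2 expression on each array (points) with the mean and SD of 3 arrays (bars) for the 10 members given in full; each panel has its own axis, which does not start at 0. In SLC7A2 and SLC38A5 the groups step upward, in SLC6A15 both 4OHT groups stand above the non-senescent arrays, and in SLC3A2 and SLC7A5 the senescent arrays stand above the other 6.

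The cationic carriers were split in direction. Of 5 genes, 1 rose and 1 fell in senescence, and 2 rose and 1 fell in knockdown. The shares of all genes called higher and lower were 14.9% and 17.6% in senescence and 9.63% and 6.09% in knockdown. SLC7A2, which carries arginine, lysine and ornithine, read 8.72, 8.76 and 8.74 in non-senescent cells, 9.35, 9.35 and 9.53 in senescent cells and 9.79, 10.07 and 10.11 in knockdown cells. Each group lay wholly above the one before it. SLC7A2 rose by 0.67 in senescence (adjusted p = 0.000106, limma) and by a further 0.58 in knockdown (adjusted p = 0.0011), so that knockdown cells stood 2.38-fold above non-senescent cells (adjusted p = 9.46e-07). No RefSeq promoter window was given for SLC7A2.

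SLC7A14, a lysosomal relative of the cationic carriers, showed the largest fall of any member. Its arrays read 10.88, 10.99 and 11.06 without 4OHT, 7.55, 7.74 and 7.92 in senescent cells, and 8.20, 8.10 and 8.10 with the hairpin. Non-senescent arrays stood far above both 4OHT groups, and the knockdown arrays just above the senescent ones. The level was 89.4% lower in senescence (log2 change -3.24, SE 0.09, adjusted p = 9.12e-10, limma). The knockdown change was 0.40 (SE 0.09, adjusted p = 0.0119), leaving -2.84 (adjusted p = 2.32e-09).

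A second SLC7A14 probe set gave means of 9.14, 6.05 and 6.43 in the same order of groups. With senescent and knockdown means below 6.75, the size of this probe set's changes is uncertain. Its changes were -3.09 in senescence (adjusted p = 8.05e-07 over all probe sets, limma) and 0.38 in knockdown (adjusted p = 0.12 over all probe sets), so it did not add a call in knockdown. SLC7A1, the carrier of arginine and lysine found in most cells, did not pass the test in senescence (0.02, 95% interval -0.13 to 0.17). In knockdown it changed by -0.26 (adjusted p = 0.0281, limma). That call was lost without any of senescent 2 or 3 or knockdown 1, 2 or 3 (-0.22 to -0.27, adjusted p = 0.0641 to 0.101) and with array medians subtracted. Against non-senescent cells its change was -0.24 (adjusted p = 0.0221), lost without non-senescent array 1 or 3 or knockdown array 1 or 3 (-0.18 to -0.24, adjusted p = 0.0506 to 0.0835) and with array medians subtracted (-0.17, adjusted p = 0.134). SLC7A3 and SLC7A4 were called in none.

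Among the 8 proline and neutral amino acid carriers of SLC6, SLC6A15 alone rose in senescence. It encodes a sodium-dependent carrier of proline and branched-chain amino acids, best known from neurons. It read 8.91, 8.71 and 8.77 in non-senescent cells, 11.99, 11.98 and 12.09 in senescent cells, and 12.02, 12.11 and 12.07 in knockdown cells. The non-senescent arrays stood apart from the other 6, which overlapped. The rise in senescence was 9.35-fold (log2 change 3.23, SE 0.06, adjusted p = 6.01e-11, limma), the largest of any member. In knockdown the change was 0.05 (95% interval -0.09 to 0.18, adjusted p = 0.666), so that 3.27 remained (adjusted p = 5.52e-11).

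Of the other 7 genes of that group, SLC6A17, a carrier of synaptic vesicles, was called lower in senescence. Its level was below 6.75 in all groups, its arrays overlapped and the change was -0.21 (adjusted p = 0.0274, limma). The call was lost without non-senescent array 1 or 2 or senescent array 1 or 3 (-0.16 to -0.20, adjusted p = 0.0735 to 0.0886) and with array medians subtracted (-0.18, adjusted p = 0.0977). The other 6 were called in no comparison, and none of the 8 was called in knockdown.

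Of the 12 sodium-coupled neutral carriers of SLC38, 4 were called lower and 1 higher in senescence. With array medians subtracted 2 were lower and 2 higher. All genes were also called lower more often than higher, with 17.6% lower and 14.9% higher. In knockdown 3 of the 12 rose and none fell, where 9.63% of all genes were called higher and 6.09% lower. SLC38A4, a carrier of small neutral and cationic amino acids known from liver and placenta, read 7.99, 7.83 and 7.75 in non-senescent cells, 6.36, 6.32 and 6.59 in senescent cells and 6.83, 6.78 and 6.83 in knockdown cells. The groups did not overlap, and the senescent arrays were lowest. The change in senescence was -1.43 (adjusted p = 2.39e-07, limma) and that in knockdown 0.39 (adjusted p = 0.00808), leaving -1.04 (adjusted p = 2.51e-06). The senescent mean of 6.43 lay below 6.75, so the size of both changes is uncertain.

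SLC38A5 carries glutamine, glycine and serine. It read 8.34, 8.39 and 8.23, then 8.94, 8.93 and 8.97, then 9.19, 9.17 and 9.26 in non-senescent, senescent and knockdown cells. As for SLC7A2, each group lay wholly above the one before. The rise was 0.63 in senescence (adjusted p = 5.83e-06, limma) and 0.26 in knockdown (adjusted p = 0.00866), or 1.85-fold in all (adjusted p = 4.04e-07).

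SLC38A1 and SLC38A2, the glutamine and alanine carriers found in most cells, changed little. SLC38A1 read 12.10, 12.18 and 12.10, then 11.95, 11.95 and 11.91, then 11.93, 11.82 and 11.86, a senescence change of -0.19 (adjusted p = 0.0146, limma). SLC38A2 read 13.06, 13.01 and 13.02, then 12.88, 12.81 and 12.87, then 12.98, 12.95 and 12.97, a senescence change of -0.18 (adjusted p = 0.0112). In both genes the non-senescent arrays were the highest, and between knockdown and non-senescent cells SLC38A1 alone of the pair was called (-0.25, adjusted p = 0.00259). With array medians subtracted neither gene was called in senescence. The senescence call of SLC38A1 was also lost without non-senescent array 2 (-0.16, adjusted p = 0.0548). Its call between knockdown and non-senescent cells held under all alternatives.

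SLC38A6 fell by 0.33 in senescence (adjusted p = 0.00837, limma), from 9.99 to 10.26 per array to 9.63 to 9.88. SLC38A9, the lysosomal carrier through which mTORC1 senses arginine, was at 9.50 to 9.70 in non-senescent and 9.53 to 9.70 in senescent arrays and at 9.88 to 9.96 in knockdown arrays. The groups without the hairpin overlapped, and all knockdown arrays were higher, by 0.32 against senescent cells (adjusted p = 0.00844) and 0.34 against non-senescent cells (adjusted p = 0.00254). SLC38A7, a lysosomal glutamine carrier, and SLC38A12 were called only between knockdown and non-senescent cells. SLC38A7 changed by -0.25 there (adjusted p = 0.0262), a call lost without non-senescent array 2 or 3 or knockdown array 1 or 2 (-0.21 to -0.24, adjusted p = 0.0721 to 0.1) and with array medians subtracted (-0.19, adjusted p = 0.121). SLC38A12 changed by 0.23 (adjusted p = 0.013), a call lost without knockdown array 1 (0.18, adjusted p = 0.0559). SLC38A3, SLC38A8, SLC38A10 and SLC38A11 were called in none.

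In the SLC36 family SLC36A4 showed the largest knockdown change of any member. It encodes a carrier of proline and tryptophan. The arrays read 9.20, 9.19 and 9.20 in non-senescent, 8.63, 8.54 and 8.78 in senescent and 9.36, 9.46 and 9.28 in knockdown cells. Senescent arrays were the lowest and knockdown arrays the highest. SLC36A4 fell by 0.55 in senescence (adjusted p = 9.9e-05, limma) and rose by 0.71 in knockdown, or 1.64-fold (adjusted p = 7.75e-05). The difference of 0.17 that remained was not called (adjusted p = 0.0892), but with array medians subtracted it was 0.23 and called (adjusted p = 0.0372).

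SLC36A1, the proton-coupled carrier of lysosomes, was at 9.62 to 9.83, 9.86 to 10.10 and 10.08 to 10.24 in the 3 groups. Non-senescent arrays were the lowest, and the other groups overlapped. It changed by 0.25 in senescence (adjusted p = 0.0274, limma), a call lost without non-senescent array 1 or 3 or senescent array 2 or 3 (0.18 to 0.26, adjusted p = 0.0533 to 0.109). Against non-senescent cells the knockdown arrays were 0.43 higher (adjusted p = 0.00132). SLC36A2 and SLC36A3 lay below 6.75 and were called in none.

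The glutamate and neutral amino acid carriers of SLC1 changed little. SLC1A5, the main glutamine carrier of many dividing cells, was at 10.38 to 10.53, 10.48 to 10.55 and 10.53 to 10.57 in the 3 groups. The senescent arrays overlapped with both other groups, and the knockdown arrays lay just above the non-senescent ones. Its change was 0.06 in senescence (95% interval -0.06 to 0.17) and 0.04 in knockdown (-0.07 to 0.16). SLC1A4, a carrier of alanine, serine and cysteine, was at 7.45 to 7.61 in non-senescent arrays and 7.06 to 7.35 in senescent arrays. The change of -0.28 was called (adjusted p = 0.0383, limma), but not without non-senescent array 1 or 3 or senescent array 1 (-0.18 to -0.27, adjusted p = 0.091 to 0.132). It was not called with array medians subtracted (adjusted p = 0.095) or with the replicate number as a block (adjusted p = 0.061) either.

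SLC1A1, a glutamate carrier, was called higher in knockdown (0.33, adjusted p = 0.021, limma) at 5.69 to 6.22, below 6.75 in all groups. That call was lost without senescent array 1 or 2 or knockdown array 2 or 3 (0.27 to 0.31, adjusted p = 0.0693 to 0.0935). The glial glutamate carriers SLC1A2 and SLC1A3, and SLC1A6 and SLC1A7, lay below 6.75 and were called in none.

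SLC43A2, which lets branched-chain amino acids and phenylalanine pass in either direction, fell in senescence and rose in knockdown. It read 8.38, 8.45 and 8.34 in non-senescent, 8.11, 8.16 and 8.05 in senescent and 8.38, 8.42 and 8.34 in knockdown cells. The senescent arrays lay below the other 6, which overlapped. The changes were -0.29 (adjusted p = 0.00134, limma) and 0.27 (adjusted p = 0.00525), and -0.01 remained (95% interval -0.13 to 0.10). SLC43A1 was called in none.

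Of the 10 carriers of monoamines, GABA, glycine, taurine and creatine, 1 fell in senescence and 2 rose in knockdown. Over all genes 17.6% were called lower in senescence and 9.63% higher in knockdown. SLC6A9, a glycine carrier, read 8.25, 8.38 and 8.33, then 7.97, 8.06 and 7.94, then 8.23, 8.24 and 8.23. Senescent arrays were the lowest, with a change of -0.33 in senescence (adjusted p = 0.000582, limma) and 0.24 in knockdown (adjusted p = 0.00962). SLC6A6, the taurine carrier, read 9.67, 9.76 and 9.82, then 9.88, 9.89 and 9.89, then 10.22, 10.10 and 10.10.

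The SLC6A6 groups did not overlap and stood in that order, although the senescence change of 0.14 was not called (adjusted p = 0.084, limma) except with array medians subtracted (0.17, adjusted p = 0.0479). The knockdown change of 0.25 was called (adjusted p = 0.011), and 0.39 remained (adjusted p = 0.000264). SLC6A8, the creatine carrier, changed by -0.24 in knockdown (adjusted p = 0.113), and by -0.34 between knockdown and non-senescent cells (adjusted p = 0.0175). Without senescent array 3 the knockdown change was called (-0.35, adjusted p = 0.0143), and without non-senescent array 2 or 3 or knockdown array 2 or 3 the remaining change was not (-0.31 to -0.32, adjusted p = 0.0615 to 0.0689). Near-identical copies of SLC6A8 lie on other probe sets, so its level is uncertain. On those shared with SLC6A10P the knockdown changes were -0.33 and -0.36 (adjusted p = 0.0767 and 0.0511 over all probe sets, limma). Against non-senescent cells they were -0.26 and -0.28 (adjusted p = 0.104 and 0.075), so these probe sets gave no call. SLC6A4, the serotonin carrier, lay below 6.75 in all groups and changed by -0.23 between knockdown and non-senescent cells (adjusted p = 0.0119), a call lost with array medians subtracted (-0.17, adjusted p = 0.0505). The dopamine carrier SLC6A3 and the GABA carriers SLC6A11, SLC6A12 and SLC6A13 were called in none.

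The element core searched in the SLC3A2 window was found near the starts of 6 members. A promoter window was given for 45 of the 57 members, 67 windows in all, and 6 of these windows (8.96%) held TGATGNAA on either strand, as did 3.62% of the 35116 windows in the table. Of the 10 members given in full, 8 had a window, and SLC3A2 was the only one with a match. The 5 other matches are shown with 16 bases on each side, to let their flanks be compared, in the direction of the gene and in assembly GRCh38.p14. They lie at chr5:36596352-36596391 for SLC1A3 and chr2:64989376-64989415 for SLC1A4 on the plus strand, and at chr19:46784888-46784927 for SLC1A5, chr12:46266497-46266536 for SLC38A1 and chr13:29595658-29595697 for SLC7A1 on the minus strand. Capitals mark the match.
SLC1A3: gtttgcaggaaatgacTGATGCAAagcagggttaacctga
SLC1A4: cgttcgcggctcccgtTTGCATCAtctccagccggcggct
SLC1A5: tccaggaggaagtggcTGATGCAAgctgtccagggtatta
SLC38A1: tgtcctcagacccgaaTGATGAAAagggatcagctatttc
SLC7A1: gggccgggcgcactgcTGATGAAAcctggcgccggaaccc
The match in SLC1A4 is read on the opposite strand and the others on the strand printed. TGATGCAA was the match in SLC1A3, SLC1A4 and SLC1A5, and TGATGAAA in SLC38A1 and SLC7A1. Counted from the start of transcription at 0, the first capital is at -220 in SLC1A3, -7 in SLC1A4, -97 in SLC1A5, -4 in SLC38A1 and 7 in SLC7A1. Of these 5 genes, SLC1A4 and SLC38A1 were called lower in senescence and SLC7A1 lower in knockdown, each with small changes given above.

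Genes of the amino acid response changed in both directions. Of the 29 on the list, 10 rose and 8 fell in senescence (62.1%), and 5 rose and 6 fell in knockdown (37.9%). The median changes were 0.04 and 0.00, and 26 of the 29 lay above 6.75. Of all genes 32.6% and 15.7% were called, and of those above 6.75 45.3% and 22.5%. ATF4 itself changed by 0.03 in senescence (adjusted p = 0.781, limma) and by -0.12 in knockdown (adjusted p = 0.168). CHAC1, which breaks down glutathione, rose by 1.04 in senescence (adjusted p = 6.73e-07). PHGDH, the first enzyme of serine synthesis, fell by 0.95 (adjusted p = 2.25e-07), and ASNS, asparagine synthetase, fell by 0.96 (adjusted p = 1.31e-06). None of these enzymes was called in knockdown. NUPR1, a stress-induced regulator of transcription, changed by -1.17 in senescence (adjusted p = 2.57e-08) and by -0.41 in knockdown (adjusted p = 0.000284).

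Of 26 genes measured that sense amino acids upstream of mTORC1, 4 rose and 7 fell in senescence, and 2 rose and 3 fell in knockdown. The shares called were 42.3% and 19.2%, against 32.6% and 15.7% of all genes. Among all genes above 6.75, where 25 of the 26 lay, they were 45.3% and 22.5%. RRAGB, one of the Rag GTPases that bring mTORC1 to the lysosome, read 8.60, 8.51 and 8.54, then 7.28, 7.62 and 7.75, then 7.90, 7.94 and 7.93. Its groups did not overlap, and the senescent arrays were the lowest (adjusted p = 1.64e-05, limma), with a knockdown change of 0.37 (adjusted p = 0.0264). RRAGC, another Rag GTPase, fell by 0.57 (adjusted p = 8.89e-06) and the leucine-sensing family member SESN3 by 0.86 (adjusted p = 0.000295). The arginine sensor CASTOR1 rose by 0.47 (adjusted p = 0.000125). These 3 were not called in knockdown.

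Enzymes of glutamine, glutamate, arginine, proline and branched-chain metabolism were called more often lower than higher in senescence. All genes were too, with 17.6% lower and 14.9% higher. The shares of the list called in senescence and knockdown were 56.25% and 6.25%, against 32.6% and 15.7% of all genes. Among all genes above 6.75 they were 45.3% and 22.5%. Of 16 measured, 7 fell, 2 rose and 7 were not called, and GOT1, the cytosolic aspartate aminotransferase, was the only one called in knockdown, with a change of -0.23 (adjusted p = 0.00732, limma). ASS1, of arginine synthesis, fell by 0.82 in senescence (adjusted p = 2.6e-06), the branched-chain aminotransferase BCAT1 by 0.66 (adjusted p = 3.69e-06) and glutamine synthetase, GLUL, by 0.55 (adjusted p = 7.17e-06). ASNS is on this list as well. The median change of the list was -0.05 in senescence and 0.07 in knockdown.

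Of 18 enzymes of neurotransmitters, creatine and taurine, 3 rose and 4 fell in senescence, and 1 rose and 1 fell in knockdown. The shares called were 38.9% and 11.1%, against 32.6% and 15.7% of all genes. Only 5 of the 18 lay above 6.75 in all groups. Among all genes above that level in at least 1 group, 45.3% and 22.5% were called, and among those below it in all groups 8.41% and 2.91%. ABAT, which degrades GABA, fell by 0.72 in senescence (adjusted p = 3.55e-05, limma), and GAMT, of creatine synthesis, rose by 0.33 (adjusted p = 0.001). CDO1, of taurine synthesis, fell by 0.49 in senescence (adjusted p = 0.000562) and rose by 0.35 in knockdown (adjusted p = 0.012). The monoamine oxidase MAOB changed by 0.74 (adjusted p = 0.000105) and by -0.47 (adjusted p = 0.00672), with non-senescent arrays at 5.94 to 6.13 and knockdown arrays at 6.31 to 6.35, below 6.75.

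Of 21 amino acid and peptide carriers of other families, 5 rose and 4 fell in senescence, and 3 rose and 2 fell in knockdown. The shares called were 42.9% and 23.8%, against 32.6% and 15.7% of all genes. In this list 10 of the 21 lay above 6.75 in all groups. Among all genes above that level in at least 1 group, 45.3% and 22.5% were called, and among those below it in all groups 8.41% and 2.91%. SLC25A15, the ornithine carrier of mitochondria, rose by 0.44 in senescence (adjusted p = 5.5e-05, limma) and by 0.83 in knockdown (adjusted p = 4.39e-06). The lysosomal cystine carrier CTNS changed by 0.18 in senescence (adjusted p = 0.0306) and by -0.46 in knockdown (adjusted p = 0.000405). SLC66A1, which exports cationic amino acids from lysosomes, rose by 0.40 (adjusted p = 0.000128) and fell by 0.37 (adjusted p = 0.000762). The lysosomal peptide carrier SLC15A3 fell by 0.43 (adjusted p = 0.000202) and rose by 0.45 (adjusted p = 0.000639).

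**Figure D3:**
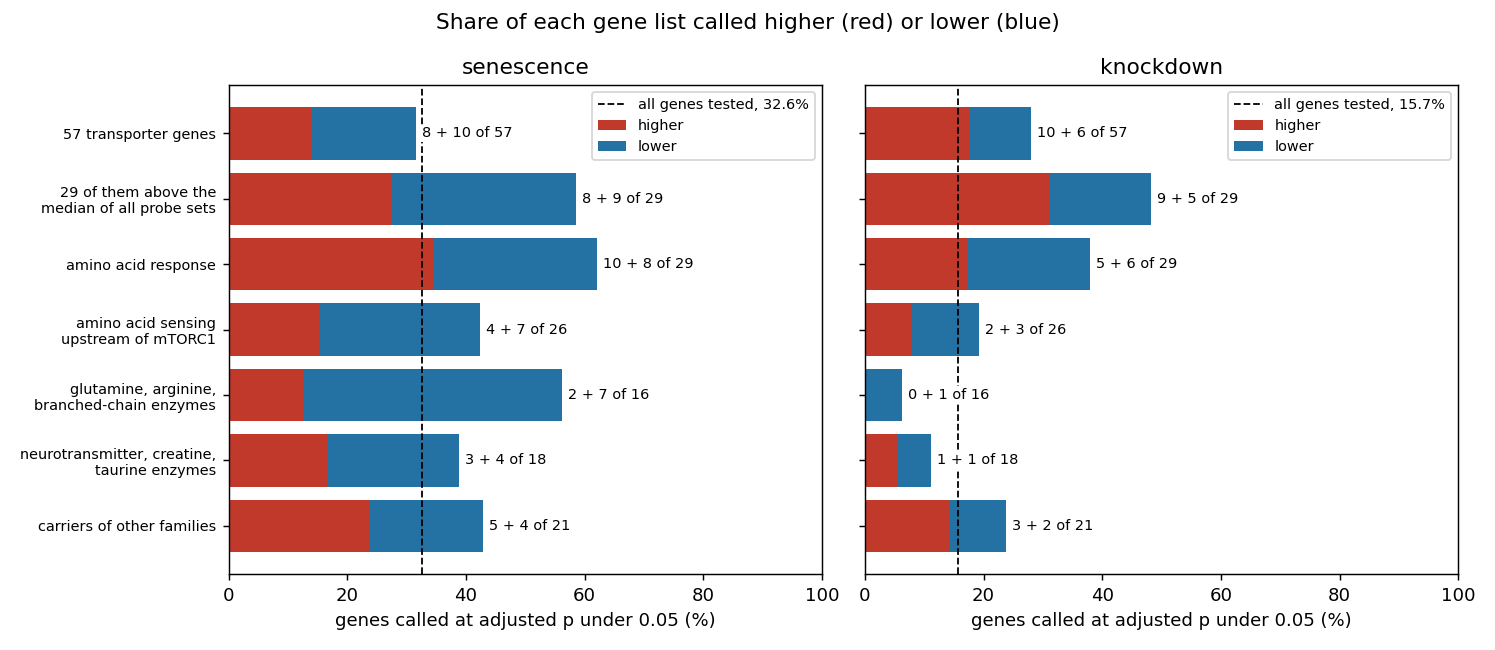
Percent of each gene list called higher (red) or lower (blue) at an adjusted p under 0.05, with the counts beside each bar and the percent of all 18417 genes as a dashed line. In senescence the 57 carriers sit at 31.6%, next to the line at 32.6%, and the amino acid response list at 62.1%; in knockdown the carriers sit at 28.1% and the line at 15.7%.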

How the data were processed

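RNA of 9 samples was measured on Affymetrix whole-transcript arrays. The extraction text in the labels names a kit for stranded libraries instead, and the probe sets are those of the arrays. The submitters' processing notes name RMA, oligo and limma (versions and genome build not given in the sources used here), and the authors deposited 1 log2 value per probe set and array. Of 33297 probe sets, 19460 carried exactly 1 symbol, 1754 several and 12083 none, and the Entrez numbers of 19429 with 1 symbol matched RefSeq (GRCh38.p14). Where a gene had several probe sets (769 genes), the brightest over all arrays stood for it, leaving 18417 genes. RMA sets all arrays to 1 distribution, so a change shared by most transcripts is not seen. Precision is limited by how many arrays there are.

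The 3 groups entered 1 fit in limma 3.58.1 (R 4.3.3), without covariates and with 6 residual degrees of freedom (10.45 with the prior). Each 2-sided p was adjusted by Benjamini-Hochberg within its comparison. With 3 arrays a group, exact permutation cannot go below p = 0.1. The fit was tested on simulated data. In 721 genes, none of them members, a group gave 1 identical value on its arrays. Members were given on every array where called in senescence or knockdown with a log2 change of at least 0.5 and 1 or more group means above 6.75, and SLC3A2 always. Up to 4 genes per companion list were named, those with the smallest p, and SLC7A8, SLC38A1, SLC38A2, SLC43A2, SLC6A6, SLC6A9, SLC7A11, ATF4, GOT1, TEK and CD68 were named with values after these were seen. Members and lists were chosen with earlier results of these data known. SLC43A3 shared its only probe set with PRG2. SLC38A12 was added to the SLC38 group because the rule found it.

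The alternatives left out each array, blocked on the replicate number, fitted the 6 arrays of a comparison, subtracted array medians, dropped dim genes, averaged probe sets within genes, adjusted over all probe sets, added an intensity trend or used the t-test of the study's methods. Promoter windows were searched for exact matches on both strands.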

Additional observations from a re-analysis of the deposited data

Results flagged for a closer look

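A signal lay on a probe set that carries the symbols of both SLC43A3, a carrier of purine bases in the SLC43 family, and PRG2, and that no comparison above used. It read 10.10, 10.35 and 10.34 in non-senescent cells, 10.73, 10.92 and 10.69 in senescent cells, and 10.36, 10.40 and 10.30 in knockdown cells. All senescent arrays lay above the other 6. The log2 change was 0.52 in senescence (adjusted p = 0.00243 over all probe sets, limma) and -0.43 in knockdown (adjusted p = 0.0177). Which of the genes gave the signal was not tested.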

How the results depend on the processing

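Each comparison was repeated under 18 alternative settings. With array medians subtracted, 6 members were called lower in senescence in place of 10, and 5 in place of 8 between knockdown and non-senescent cells. With the t-test of the study's methods and Benjamini-Hochberg adjustment, 5 members were called higher and 3 lower in knockdown, in place of 10 and 6, and 4 lower in place of 8 in what remained. That adjusted t-test no longer called the knockdown changes of SLC38A4 (adjusted p = 0.0839), SLC7A14 (0.14), SLC7A2 (0.0749), SLC7A7 (0.164), SLC7A8 (0.0888), SLC38A9 (0.0568), SLC1A1 (0.177) and SLC7A1 (0.0807). In senescence it no longer called SLC1A4 (0.177), SLC36A1 (0.163), SLC38A6 (0.131) and SLC6A17 (0.168), and in what remained SLC38A12 (0.088), SLC38A7 (0.0711), SLC6A8 (0.0532), SLC7A1 (0.0917) and SLC7A8 (0.0745). Unadjusted, it called 10 higher and 8 lower in senescence, 11 and 7 in knockdown, and 10 and 11 in what remained. Leaving out 1 array at a time gave 7 to 9 higher and 8 to 11 lower in senescence, 9 to 10 and 4 to 6 in knockdown, and 9 to 10 and 5 to 9 in what remained, where the 5 came without non-senescent array 3. Of 540 values of the 10 members given in full, 526 kept their direction and side of the threshold, 11 lost and 3 gained a call, and 0 turned. Whether replicate numbers pair the samples cannot be settled from 3 arrays a group. Same-numbered arrays correlated at -0.26 to 0.32 in their deviations from group means and others at -0.33 to 0.34. Same-numbered senescent and knockdown arrays correlated at 0.07 to 0.32, and same-numbered pairs with a non-senescent array at -0.26 to -0.01. Non-senescent array 1 correlated best with an array of another number, and senescent array 1 with knockdown array 1. With the number as a block, 8 members were higher and 9 lower in senescence (SLC1A4 lost its call), 10 and 6 in knockdown, and 10 and 8 in what remained. Signal over background limits the 28 members below 6.75 in all groups.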
